A study of Mus musculus with 6 samples.

Results

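Enzymes of the tricarboxylic acid (TCA) cycle from citrate to fumarate were examined in muscle lacking the transcription factor EB (TFEB). They were 9 genes selected by name, with earlier results of these data known: Cs, Idh2, Idh3a, Idh3b, Idh3g, Ogdh, Suclg1, Sucla2 and Fh1. Each has at least 1 probe set that the platform annotation assigns to it alone, and together they are read by 15 of the 22626 probe sets tested, or 9 of the 12393 genes with a probe set of their own. Muscle RNA of 3 Tcfeb knockout (TFEB KO) and 3 wild-type (WT) mice, all C57BL/6 and 1 month old, was hybridised to Affymetrix expression arrays, each mouse to its own. The sources used here do not name the muscle. In the study, deletion was made specific to muscle by crossing floxed Tcfeb with MLC1f-Cre, a line that expresses the recombinase from a myosin light chain gene of fast muscle fibers, so cells of the tissue other than muscle fibers would keep the gene. The sources do not say whether the WT mice carried the floxed allele or the Cre.

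The TCA cycle is the ring of reactions in the mitochondrial matrix that oxidizes acetyl groups from sugar, fat and amino acids to carbon dioxide. The electrons pass through NADH and complex II to the respiratory chain, and oxidative muscle fibers hold more of its enzymes than glycolytic fibers do. Citrate synthase (Cs) starts the ring, and its activity is a common measure of mitochondrial content in muscle. Isocitrate is then oxidized to 2-oxoglutarate by either of a pair of mitochondrial enzymes. One is Idh2, which reduces NADP and so also feeds NADPH to glutathione and thioredoxin. The other is Idh3, a complex of the catalytic subunit Idh3a with Idh3b and Idh3g, which reduces NAD and is controlled by ADP, NADH and calcium. Ogdh is the E1 enzyme of the 2-oxoglutarate dehydrogenase complex. Suclg1 is the alpha subunit of succinyl-CoA ligase and pairs with Sucla2 to make ATP or with Suclg2 to make GTP. Fh1 is fumarase, which makes malate.

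Values are log2 values made by the authors with RMA, which subtracts background, gives the arrays a common distribution and reduces each probe set to 1 value per array. A value therefore compares 1 probe set between arrays, and the values of different probe sets are not levels on a common scale. Tfeb itself read 7.10, 7.23 and 7.04 in TFEB KO muscle, against 8.61, 8.55 and 8.96 in WT muscle, and fell by 1.58 on the log2 scale (standard error 0.13, adjusted p = 0.0079 from limma). Whether its probe set lies in the deleted stretch was not tested. All p-values from limma are two-sided and adjusted over the 22626 probe sets by the Benjamini-Hochberg method, with 0.05 as the threshold. Correlations between arrays ran from 0.9889 to 0.9967 (Pearson), and the number of arrays limits the precision.

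Of the 15 probe sets, 1 fell in TFEB KO muscle, a probe set of Cs, and 0 rose. The 9 genes were chosen with earlier results of these data known. The shares over all probe sets given here are thus no independent test of them. Over all probe sets, 0.844% were called lower and 0.751% higher. At an unadjusted p under 0.05, 10 of the 15 probe sets were lower and 0 higher, where 9.40% of all probe sets were lower and 7.81% higher. Judged on the brightest probe set of each gene, limma called 0 of the 9 genes and gave 6 an unadjusted p under 0.05, all lower. The methods' t-test called 0 of them after adjustment and 5 without it. In 11 of the 15 probe sets, or 73.3%, every TFEB KO array lay below every WT array, where 13.3% of all probe sets did so, and in 0 did they lie above (9.77% of all). These 11 are all the probe sets of Cs, Idh2, Idh3a, Idh3g, Ogdh and Suclg1, or 6 of the 9 genes. Probe sets of the same gene are repeated readings of the same mice. The share over all probe sets also includes dim ones, with a median array value of 6.50. The groups overlapped in the other 4, which are both probe sets of Idh3b and the single ones of Sucla2 and Fh1. Fold changes ran from -1.00 for Idh2 to 0.02 for Fh1 on the log2 scale, with a median of -0.31 over the 15 probe sets and -0.019 over all probe sets.

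**Figure D1:**
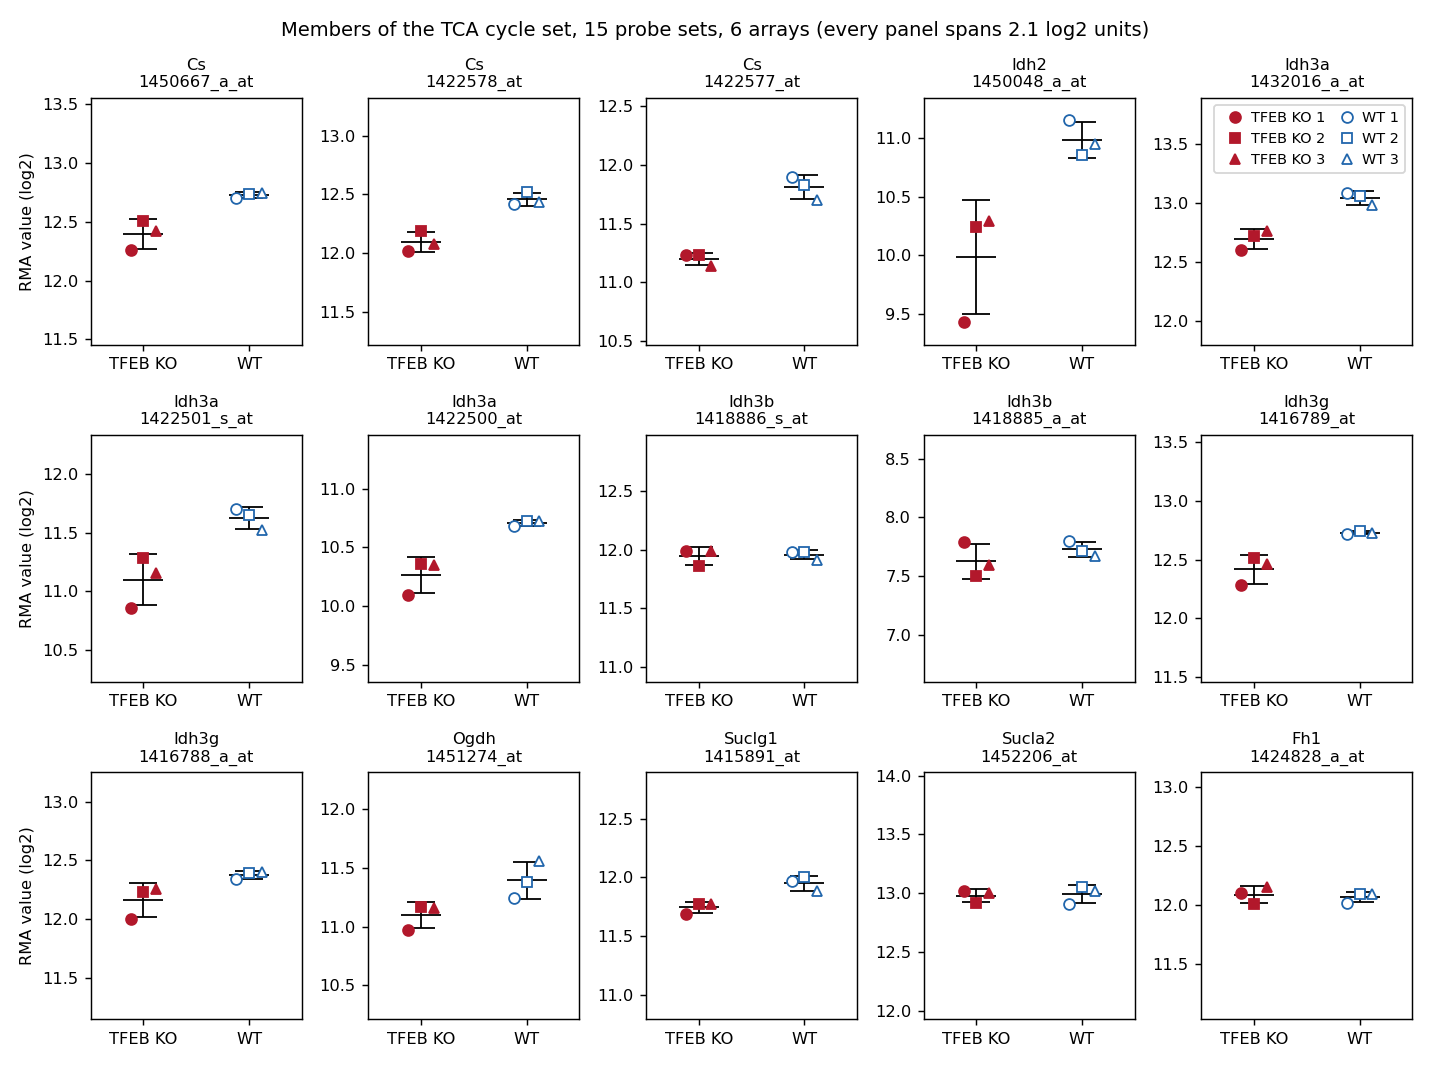
RMA value (log2, vertical axis) of the 15 probe sets of the 9 genes, with 1 point per array for 3 TFEB KO (filled) and 3 WT (open) mice, and with the mean (long line) and SD (bars) of each group. Every panel spans the same range of log2 units. The TFEB KO arrays lie below the WT arrays in 11 panels, farthest for Idh2, and mix with them for Idh3b, Sucla2 and Fh1.

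Cs, at chr10:128337727-128362482 (GRCm38.p6, RefSeq), was read by 3 probe sets. On 1422577_at it read 11.23, 11.23 and 11.14 in TFEB KO muscle, against 11.90, 11.83 and 11.70 in WT muscle. The TFEB KO arrays were close together here, and the highest of them lay 0.46 below the lowest WT array. Cs fell by 0.61 on this probe set (log2 scale, standard error 0.09, adjusted p = 0.028), so that the TFEB KO mean was 65.6% of the WT mean. The brighter 1422578_at read 12.02, 12.19 and 12.08 in TFEB KO muscle, against 12.42, 12.52 and 12.43 in WT muscle, a fold change of -0.36 (standard error 0.09, adjusted p = 0.095). The brightest, 1450667_a_at, read 12.26, 12.51 and 12.42 in TFEB KO muscle, against 12.70, 12.74 and 12.75 in WT muscle, a fold change of -0.33 (standard error 0.10, adjusted p = 0.13). All 3 probe sets placed citrate synthase lower without overlap, and the dimmest of them gave the largest difference. The call of 1422577_at remained without KO 1 (adjusted p = 0.039) and was lost without any other single array (0.057 to 0.12).

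Idh2, at chr7:80094845-80118608, showed the largest difference of the 9 genes. Its only probe set, 1450048_a_at, read 9.43, 10.24 and 10.29 in TFEB KO muscle, against 11.15, 10.85 and 10.95 in WT muscle. All TFEB KO arrays were low, and KO 1 was well below the other two. Set against the WT mean, KO 1 stood at 34.0%, KO 2 at 59.8% and KO 3 at 61.7%, while the WT arrays stood at 91.2% to 112%. The means were 9.99 ± 0.48 in TFEB KO muscle and 10.99 ± 0.15 in WT muscle (SD, n = 3 mice each), and the fold change of -1.00 had a standard error of 0.22 (adjusted p = 0.066). It missed the threshold with all arrays, where the spread of the TFEB KO group was the widest of the 15 probe sets. Without KO 1 it was -0.72 and passed (adjusted p = 0.036, where 0.897% of all probe sets were called lower), and without any other single array it did not pass, at an adjusted p of up to 0.24.

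The promoter of Idh2 is shown since this gene differed most. The 250 bases before its RefSeq start site, on the minus strand at chr7:80115351-80115600 (GRCm38.p6), lie inside the annotated span of the gene, upstream of this start. They were searched on both strands for CACGTG, the core of the CLEAR element that TFEB binds, for TNAAGGTCA (estrogen-related receptors), for the palindrome bound by NRF1 and for CCGGAAG (ETS factors such as GABP). Capitals would mark a match, and this stretch holds none.
Idh2 promoter: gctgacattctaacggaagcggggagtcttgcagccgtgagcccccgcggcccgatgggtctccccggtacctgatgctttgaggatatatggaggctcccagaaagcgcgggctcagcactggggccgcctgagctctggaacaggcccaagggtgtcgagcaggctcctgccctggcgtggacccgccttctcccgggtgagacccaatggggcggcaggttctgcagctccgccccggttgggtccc
No match says only that these letters are not in this window. Its GC content was 67.2%, where the median of 32851 RefSeq promoters was 52.4%.

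In NAD-linked Idh3, the groups stood apart for Idh3a and Idh3g and overlapped for Idh3b, while the difference between subunits was not tested. For the catalytic subunit Idh3a, at chr9:54586511-54604662, the brightest probe set, 1432016_a_at, read 12.60, 12.72 and 12.76 in TFEB KO muscle, against 13.09, 13.06 and 12.98 in WT muscle. The fold change was -0.35 (standard error 0.09, adjusted p = 0.10). On 1422501_s_at, whose suffix marks probes shared between transcripts, Idh3a read 10.86, 11.28 and 11.16 in TFEB KO muscle, against 11.70, 11.65 and 11.52 in WT muscle (-0.52, adjusted p = 0.082). On 1422500_at it read 10.09, 10.36 and 10.35 in TFEB KO muscle, against 10.68, 10.72 and 10.72 in WT muscle (-0.44, adjusted p = 0.080). The groups stood apart on each of the 3 probe sets, and none passed the test. KO 1 was the lowest array on all of them.

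Idh3g, on the X chromosome at chrX:73778963-73786897, read 12.28, 12.51 and 12.46 on 1416789_at in TFEB KO muscle, against 12.72, 12.74 and 12.73 in WT muscle. The WT arrays nearly coincided here, and the fold change was -0.31 (standard error 0.09, adjusted p = 0.14). Its other probe set, 1416788_a_at, read 12.00, 12.23 and 12.26 in TFEB KO muscle, against 12.34, 12.39 and 12.40 in WT muscle (-0.22, adjusted p = 0.32). Idh3g was lower without overlap on both, by 0.08 at the nearest arrays of the dimmer one.

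Idh3b, at chr2:130279309-130284451, read 11.99, 11.86 and 11.99 on 1418886_s_at in TFEB KO muscle, against 11.98, 11.98 and 11.91 in WT muscle. The fold change was -0.01 with a standard error of 0.09 (adjusted p = 0.97), and the arrays of the groups were interleaved. A far dimmer signal on 1418885_a_at was 7.79, 7.50 and 7.59 in TFEB KO muscle, against 7.80, 7.71 and 7.67 in WT muscle (-0.10, adjusted p = 0.69). Neither probe set separated the groups, and KO 1, the lowest TFEB KO array for Idh3a and Idh3g, was not the lowest for Idh3b.

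The promoter of Idh3g is printed as the only member promoter with a match to CCGGAAG in the 250 bases before the start site, on the minus strand at chrX:73786898-73787147. Capitals mark it, and it begins at base -104 from the start site.
Idh3g promoter: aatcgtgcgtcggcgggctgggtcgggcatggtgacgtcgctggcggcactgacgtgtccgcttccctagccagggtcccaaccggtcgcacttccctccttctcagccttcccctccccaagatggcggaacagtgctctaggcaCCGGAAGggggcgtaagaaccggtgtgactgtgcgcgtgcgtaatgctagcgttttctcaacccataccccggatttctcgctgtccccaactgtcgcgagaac
Over windows that run to 50 bases after the start site, Idh3b matched as well, at base -5 across its start site, so that 2 of the 13 member promoters in the RefSeq table had a match, where 8.86% of all promoters did. They belong to 8 of the 9 genes, and Idh3a has no entry. TNAAGGTCA was found in 0 of the 13 member promoters and in 1.28% of all, and the NRF1 palindrome in 0 and in 0.971%.

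Idh2 was set against the Idh3 subunits directly, as the difference between probe sets within each array. The level of this difference has no meaning of its own. Its change between groups compares the genes only as far as their probe sets respond alike, which was not tested. Probe sets of the same gene differed in the size of their change, at -0.33 to -0.61 for Cs and -0.35 to -0.52 for Idh3a. Idh2 minus the mean of Idh3a, Idh3b and Idh3g was -2.86, -2.12 and -2.12 in TFEB KO arrays, against -1.44, -1.74 and -1.59 in WT arrays. The groups did not overlap, and KO 1 lay farthest out. The difference averaged -2.36 ± 0.43 in TFEB KO muscle and -1.59 ± 0.15 in WT muscle (SD, n = 3 mice each), so the change of Idh2 relative to Idh3 was -0.77 on the log2 scale (standard error 0.26), or 1.71-fold lower. An exact permutation test, two-sided, gave p = 0.10, the smallest that 3 arrays against 3 allow. Over the 9 pairs of a TFEB KO and a WT array the change ran from -1.42 to -0.37.

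Against the subunits one at a time, the change was -0.65 (standard error 0.24) for Idh3a, -0.99 (standard error 0.31) for Idh3b and -0.69 (standard error 0.23) for Idh3g. Every TFEB KO array lay below every WT array in all 3, and each of the 4 tests had an exact permutation p of 0.10 (0.10 also after Benjamini-Hochberg adjustment over the 4). All 3 hold the same Idh2 values, so their standard errors do not compare the subunits with each other. The order of the 3 was not tested. Without KO 1 the change against the mean of the subunits was -0.52, and with the other arrays left out in turn it lay between -0.90 and -0.70.

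**Figure D2:**
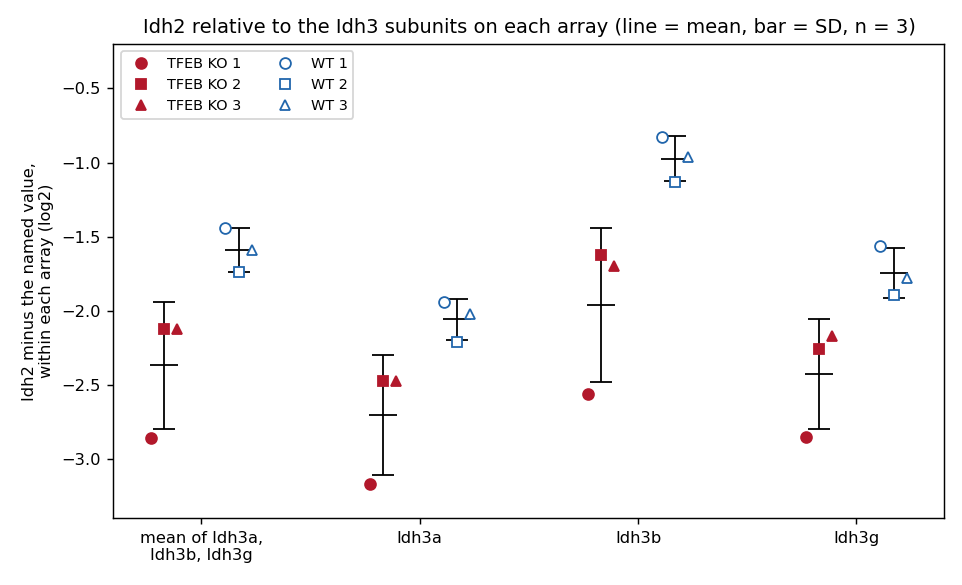
Within-array difference between the brightest probe set of Idh2 and the mean of the Idh3 subunits or each subunit (log2, vertical axis), with 1 point per array for TFEB KO (filled) and WT (open) mice and with the mean and SD of each group. The TFEB KO arrays lie below the WT arrays in all 4 comparisons, with KO 1 lowest at -2.86 for the mean of the subunits.

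At the next steps of the ring, Ogdh and Suclg1 lay lower without overlap and neither passed the test. Ogdh, at chr11:6291597-6359094, read 10.97, 11.17 and 11.16 in TFEB KO muscle, against 11.24, 11.38 and 11.56 in WT muscle, a fold change of -0.29 (standard error 0.11, adjusted p = 0.24). The groups were 0.07 apart at their nearest arrays, KO 2 and WT 1, and the WT arrays spread more widely than the group means differed. Suclg1, at chr6:73248505-73276907, read 11.69, 11.77 and 11.77 in TFEB KO muscle, against 11.97, 12.00 and 11.88 in WT muscle (-0.20, standard error 0.09, adjusted p = 0.28). It was lower on every TFEB KO array, to 83.6% to 88.7% of the WT mean.

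Sucla2 and Fh1 showed no separation. The ATP-forming subunit Sucla2, at chr14:73552786-73596144, read 13.02, 12.92 and 13.00 in TFEB KO muscle, against 12.91, 13.05 and 13.02 in WT muscle (-0.01, standard error 0.09, adjusted p = 0.97). Fh1, at chr1:175601378-175625635, read 12.10, 12.01 and 12.15 in TFEB KO muscle, against 12.02, 12.09 and 12.09 in WT muscle (0.02, standard error 0.09, adjusted p = 0.93). At this standard error neither the -0.20 of Suclg1 nor the -0.31 of Idh3g and the -0.35 of Idh3a on their brightest probe sets passed. Differences of such a size in Sucla2 or Fh1 could thus have been missed by the test.

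Of the 8 members with a promoter entry, Ogdh was the only one with CACGTG, and the stretches are shown for that reason. RefSeq gives it 6 start sites, of which 3 had a match. That makes 3 of the 13 member promoters, where 7.15% of all promoters had one. All 3 of these start sites lie inside the annotated span of the gene. A gene with more start sites has more windows to match in. A pair of the windows share 1 match, so there are 2 separate ones, at chr11:6292060-6292065 and chr11:6292417-6292422. Below are the 250 bases before the start sites on the plus strand at chr11:6291920-6292169 and chr11:6292308-6292557, with CACGTG in capitals, at bases -110 and -141 from each start site.
Ogdh promoter with the upstream match: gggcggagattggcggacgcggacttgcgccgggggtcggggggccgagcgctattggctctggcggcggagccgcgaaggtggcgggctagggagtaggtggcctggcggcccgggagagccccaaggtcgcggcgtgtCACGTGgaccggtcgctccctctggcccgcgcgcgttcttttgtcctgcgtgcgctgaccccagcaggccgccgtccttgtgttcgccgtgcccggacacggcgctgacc
Ogdh promoter with the downstream match: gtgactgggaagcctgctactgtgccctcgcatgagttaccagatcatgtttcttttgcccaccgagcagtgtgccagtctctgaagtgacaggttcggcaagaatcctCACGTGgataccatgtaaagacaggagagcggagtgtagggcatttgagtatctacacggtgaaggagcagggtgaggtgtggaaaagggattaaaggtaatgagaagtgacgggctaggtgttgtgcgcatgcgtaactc
A match is a run of letters and not a measured site.

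The rest of the cycle was described by 8 genes. Limma called 0 of the 8, and the methods' t-test called 0 after adjustment. At an unadjusted p under 0.05 from limma, 4 were lower and 0 higher, where 9.40% of all probe sets were lower and 7.81% higher. Of the 8, 7 lay below 0, where 12310 of the 22626 probe sets did so. Lower without overlap were 6, where 13.3% of all probe sets were. The median was -0.21, against -0.019 over all probe sets. Suclg2, the GTP-forming partner of Suclg1, read 8.06, 8.31 and 8.27 in TFEB KO muscle, against 8.59, 8.59 and 8.94 in WT muscle (-0.50, standard error 0.13, adjusted p = 0.096). It stood lower on every TFEB KO array, while the ATP-forming Sucla2 was at -0.01. Malate dehydrogenase Mdh2 was at -0.28 (adjusted p = 0.18), and its other probe set overlapped at -0.17 (adjusted p = 0.54). On the brightest probe sets of the complex II subunits, Sdhb was at -0.30, Sdhd at -0.24, Sdha at -0.15 and Sdhc at -0.14. Their adjusted p-values were 0.17 to 0.53. The dimmer probe set of Sdhd overlapped at 0.07, while those of Sdha (-0.28) and Sdhc (-0.30) were lower without overlap, none past the test. Within the 2-oxoglutarate dehydrogenase complex, the E2 enzyme Dlst was at -0.18 (adjusted p = 0.41) and the shared E3 enzyme Dld at 0.22 (adjusted p = 0.44). Dld was the only gene of the 8 above 0, with KO 1 and KO 3 above all WT arrays and KO 2 among them.

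**Figure D3:**
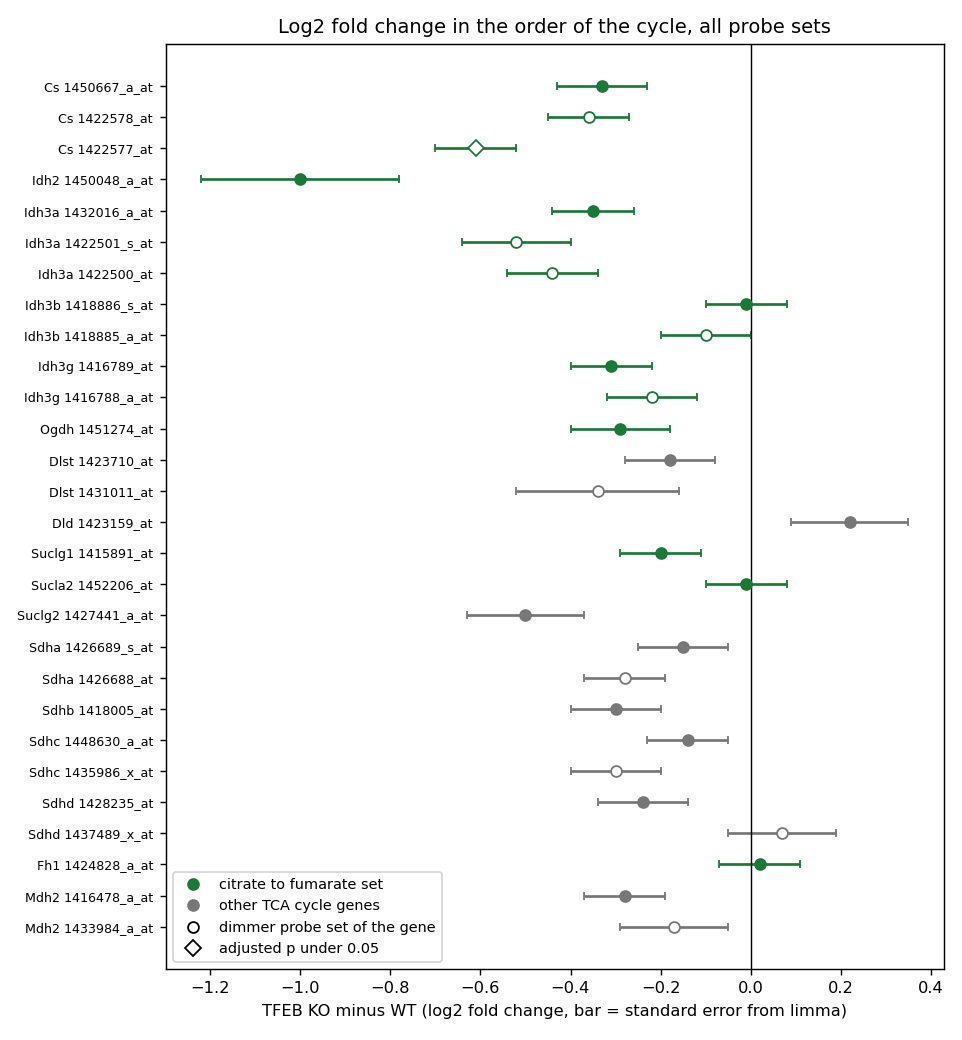
Log2 fold change of TFEB KO over WT muscle (horizontal axis, with the standard error from limma) for every probe set of the 9 genes (green) and of the other TCA cycle genes (grey), in the order of the cycle from top to bottom. Filled points are the brightest probe set of a gene, open points are dimmer ones, and the diamond is the probe set of Cs past the test at -0.61. Idh2 lies farthest to the left at -1.00, and the brightest probe sets of Idh3b, Sucla2 and Fh1 lie within 0.02 of 0.

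Of 4 counterparts outside the mitochondrial matrix, 1 rose and 0 fell, where 0.751% of all probe sets were called higher and 0.844% lower. Idh1, the NADP-linked isocitrate dehydrogenase of the cytosol and peroxisomes, read 10.34, 10.19 and 10.38 in TFEB KO muscle, against 9.88, 9.80 and 9.66 in WT muscle. It rose by 0.52 on the log2 scale (standard error 0.10, adjusted p = 0.049), 1.44-fold, and every TFEB KO array lay above every WT array. Its other probe set read 8.97, 8.79 and 9.03 in TFEB KO muscle, against 8.60, 8.43 and 8.51 in WT muscle (0.42, adjusted p = 0.085). The call of Idh1 was lost without any single array (adjusted p = 0.076 to 0.15), while its fold change stayed between 0.47 and 0.58. The NADP-linked enzyme of the matrix, Idh2, and that of the cytosol thus lay on opposite sides of WT, a contrast that was not tested itself. The cytosolic malate dehydrogenase Mdh1 was at 0.24 (adjusted p = 0.45), the iron-regulated Aco1 at 0.14 (adjusted p = 0.77) and the citrate-cleaving enzyme Acly at -0.23 (adjusted p = 0.52) on their brightest probe sets, all with overlapping groups.

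Mitochondrial enzymes that share NADP, glutamate or succinyl-CoA with these steps gave mixed values. Of the 8 genes measured, limma called 0 on the brightest probe set, and the methods' t-test, adjusted, called 0. At an unadjusted p under 0.05 from limma, 3 were lower and 0 higher. Of all probe sets, 9.40% were lower and 7.81% higher. Nnt, the transhydrogenase that makes NADPH from NADH in the inner membrane, read 9.03, 10.07 and 10.16 in TFEB KO muscle, against 10.32, 10.60 and 10.31 in WT muscle (-0.66, adjusted p = 0.27). KO 1 was its lowest array, as it was for Idh2. The dimmer probe set of Nnt overlapped at -0.38 (adjusted p = 0.57), with KO 3 above all WT arrays. The aspartate aminotransferase Got2 read 12.02, 12.30 and 12.11 in TFEB KO muscle, against 12.65, 12.67 and 12.44 in WT muscle (-0.44, adjusted p = 0.096), and its dimmer probe set fell by 0.82 (adjusted p = 0.025). The propionyl-CoA carboxylase subunit Pccb was at -0.41 (adjusted p = 0.091) and glutamate dehydrogenase Glud1 at -0.21 (adjusted p = 0.29), both without overlap. Pcca (0.06), the methylmalonyl-CoA mutase Mmut (-0.05), pyruvate carboxylase Pcx (0.10) and the malic enzyme Me2 (0.12) overlapped.

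Profiles over the 6 arrays were compared with that of Idh2 by the root mean square distance between values centered on their own mean, among 5999 genes whose brightest probe set averaged at least 7. The nearest were Fxyd6, a regulator of the sodium pump (0.16 in log2 units), the secreted C1qtnf4 (0.17), the phospholipase Pla2g7 (0.17), the lipid transfer protein Pitpnc1 (0.20) and the growth factor carrier Fgfbp1 (0.21). Fxyd6, the nearest, read 7.75, 8.25 and 8.26 in TFEB KO muscle, against 9.01, 8.66 and 8.98 in WT muscle, with KO 1 the lowest array as for Idh2. That these genes are low in TFEB KO muscle, and lowest in KO 1, follows from the choice. The values were centered and not scaled, so the order of the members below largely restates the size of their fold changes. Among the members, Idh3a lay at 0.40, with 182 genes nearer to Idh2 than it, Cs at 0.41 with 198, Idh3g at 0.41 with 220, Ogdh at 0.44 with 382 and Suclg1 at 0.48 with 765. Idh3b, Sucla2 and Fh1 lay at 0.59 to 0.60, with 3004 to 3239 genes nearer.

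The arrays of a group were not equal. KO 1 was the lowest TFEB KO array in 10 of the 11 probe sets without overlap, and KO 3 in 1, that of Cs past the test. The TFEB KO group had the larger SD in 11 of the 15 probe sets, at 0.05 to 0.48 in TFEB KO and 0.01 to 0.16 in WT muscle. The median deviation of the 9 genes from the WT mean was -0.42, -0.22 and -0.23 in TFEB KO arrays, against -0.01, 0.02 and 0.00 in WT arrays. Thus KO 1 lay farther from WT than KO 2 and KO 3, which were alike. Without KO 1, the fold change was -0.27 for the brightest probe set of Cs, -0.30 for that of Idh3a, -0.24 for Idh3g, -0.22 for Ogdh and -0.18 for Suclg1.

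In bulk muscle, fewer cells of a type and less RNA per cell cannot be told apart, so markers of the cells in the tissue are given beside the 9 genes. Defining genes of skeletal muscle, such as Acta1 and Ckm, were among the brightest on every array, with 0 of 8 called by limma (0 also at an unadjusted p under 0.05), and their linear values summed to 178721 to 185925 in TFEB KO and 178453 to 186613 in WT muscle. Most of that sum came from probe sets near the highest value on any array, 14.93, where a difference may not show. The linear values of the 9 genes summed to 38868 to 41928 in TFEB KO and 46698 to 47729 in WT muscle, without overlap. Such sums, here and below, add probe sets that are not on a common scale. They are weighted to the brightest probe sets and do not describe each gene of a list. Contractile genes of slow, oxidative fibers had 0 of 10 called by limma. At an unadjusted p under 0.05, 5 were lower, where 9.40% of all probe sets were. Their values summed to 42792 to 51929 in TFEB KO and 44843 to 76378 in WT muscle, with overlap. The median deviation of this list from the WT mean was -0.76, -0.45 and -0.52 in TFEB KO arrays, against 0.28, 0.42 and -0.74 in WT arrays. By the list's median WT 3 lay among the TFEB KO arrays. For the slow myosin heavy chain Myh7 it did not, at 10.81, 11.07 and 11.17 in TFEB KO arrays, against 12.81, 12.87 and 11.57 in WT arrays, so WT 3 was the lowest WT array and still above all TFEB KO arrays. Myl2 and Myl3, light chains of slow myosin, had the same order. Of the 10 genes, only these 3 were lower without overlap, where 13.3% of all probe sets were. On the brightest probe sets of Tnni1, Tnnc1 and Tpm3, WT 3 lay below all TFEB KO arrays, at 9.72, 11.30 and 10.94. Myoz2 overlapped at -0.00. Mb, the brightest of the list and so the largest term of its sum, was at 0.15 (adjusted p = 0.47). Every TFEB KO array lay above every WT array for Mb. WT 3 read 10.95 for Idh2 and 12.75 for the brightest probe set of Cs.

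Other cell types differed as well. Macrophage markers had 5 of 12 called higher and 0 lower, where 0.751% of all probe sets were called higher and 0.844% lower. All 12 were higher without overlap, where 9.77% of all probe sets were. They summed to 6271 to 10133 in TFEB KO and 2248 to 4005 in WT muscle. Endothelial markers had 5 of 10 called lower and 0 higher, against 0.844% of all probe sets lower and 0.751% higher. Their values summed to 1801 to 1987 in TFEB KO and 2733 to 2988 in WT muscle. KO 1, the lowest array for the TCA cycle genes, was also the highest for macrophages, at a median deviation of 1.63 against 0.90 and 0.86 in KO 2 and KO 3, for white fat, at 1.91 against -0.03 and 0.02, and for fibroblasts, at 0.54 against 0.02 and -0.03. It was the lowest for endothelium, at -0.73 against -0.46 and -0.49. The WT arrays ran from -0.46 to 0.35 for macrophages, from -0.22 to 0.38 for white fat, from -0.19 to 0.17 for fibroblasts and from -0.06 to 0.06 for endothelium. Brown fat markers were dim, with Ucp1 at 3.66 to 4.12 in TFEB KO and 3.91 to 4.13 in WT muscle. Limma called 0 of 5 white fat, 0 of 3 brown fat and 0 of 6 fibroblast markers. At an unadjusted p under 0.05 there were 0 white or brown fat markers, and 2 fibroblast markers were lower and 2 higher. Of all probe sets, 9.40% were lower and 7.81% higher at that threshold. The methods' t-test, adjusted, called 0 in each of these marker lists. The part of fiber type and of these other cells in the values of the 9 genes was not tested.

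**Figure D4:**
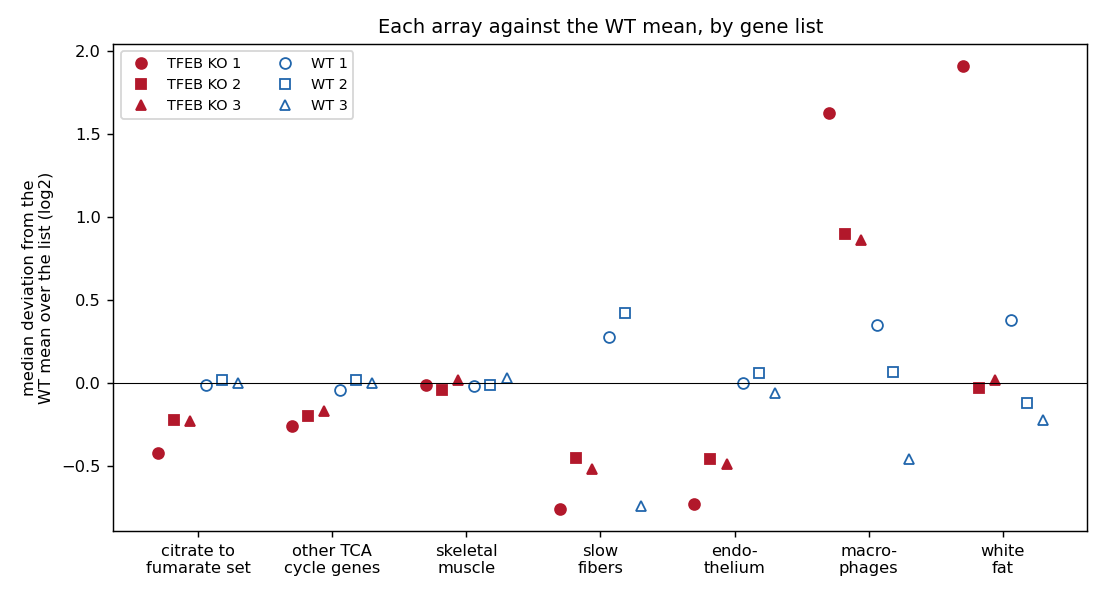
Median over the genes of each list of the deviation from the WT mean (log2, vertical axis), with 1 point per array for TFEB KO (filled) and WT (open) mice. The citrate to fumarate set separates the groups with KO 1 lowest at -0.42, WT 3 sits with the TFEB KO arrays for slow fibers at -0.74, and KO 1 stands highest for macrophages and white fat.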

How the data were processed

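The authors made the log2 values in the deposited table with RMA through the R package affy (versions and settings not given in the sources used here). Since RMA gives all arrays a common distribution, a shift of most genes together would not be seen. The 64 Affymetrix control probe sets among 22690 were dropped. Genes were named from the platform annotation, by probe sets with a single symbol, and located through RefSeq (GRCm38.p6). Mut was matched as Mmut. A gene is given first by its brightest probe set over the 6 arrays. Groups came from the sample titles. They were compared by limma 3.58.1 under R 4.3.3 (lmFit, then eBayes), with Benjamini-Hochberg adjustment over 22626 probe sets. The script was tested on simulated data. Idh2 was set against Idh3 by exact permutation in SciPy 1.17.1. Motifs and tables were handled in Python 3.11.15 with NumPy 2.4.6 and pandas 2.3.3, and plots drawn with matplotlib 3.10.9.

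The genes named are all 9 members, 8 other TCA cycle genes, 4 counterparts outside the matrix, 8 related mitochondrial enzymes, the 5 genes nearest to Idh2, Tfeb, and markers of muscle and other cells. Members and lists were chosen with earlier results of these data known. Each array was left out in turn. Other alternatives were a repeated quantile normalization, a common 75th percentile, a minimum mean of 6, a trended and robust prior, weighted arrays, replicate number as block, Student's test as the study's methods name it, controls retained, probe sets averaged per gene, the median of the Idh3 subunits and a shorter promoter window. Me3, Cfd and Plin1 are not analysed here, and some listed genes are not reported here.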

Additional observations from a re-analysis of the deposited data

How the results depend on the processing

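Over all probe sets, 191 were lower and 170 higher in TFEB KO muscle. With trended and robust moderation 254 were lower and 215 higher, with array weights 296 were lower, with the replicate number as a block 124 were lower, and the methods' t-test gave 1 lower and 0 higher after adjustment and 1944 lower and 1338 higher without it. With 1 array left out, 4 to 203 were lower and 17 to 235 higher. Of the 15 probe sets of the TCA cycle genes, 1 passed. The count was 5 with trended and robust moderation (another of Cs and all 3 of Idh3a), 2 with array weights (adding Idh2, -0.93, adjusted p = 0.049), 0 by the methods' t-test once adjusted and 9 unadjusted, and 0 to 2 with 1 array left out. Of the 9 genes on their brightest probe set, 0 passed. The count was 1 with trended and robust moderation (Idh3a), with array weights (Idh2) and with probe sets averaged per gene (Cs, -0.44, adjusted p = 0.038), 5 with the methods' t-test without adjustment, and 0 to 1 with 1 array left out. With 1 array left out, Idh3b on its brightest probe set ran from -0.03 to 0.03, Sucla2 from -0.05 to 0.02 and Fh1 from -0.01 to 0.06, none past the test. Idh2 minus the Idh3 subunits stayed negative in each alternative, at -0.90 to -0.52 with 1 array left out and -0.77 to -0.69 otherwise. The replicate number as a block left it at -0.77 (exact p = 0.25, the smallest that 3 pairs allow) and left the count of TCA cycle probe sets at 1. Same-numbered arrays did not deviate together throughout (correlations of 0.0876, 0.0477 and 0.265), so the numbers were not taken to pair the mice. Of the 8 genes with a promoter entry, the count with CCGGAAG was 1 in place of 2 in the shorter window. The cause of these differences was not tested.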
